A study of Mus musculus with 8 samples.

Results

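The genes described here are those that turn a nerve-evoked depolarization of the muscle fibre into calcium release and then handle that calcium. The list held 40 genes grouped by function, with no measured value in its rule, although earlier results of these data were known when it was drawn up: 9 for the release channel and voltage sensor, 13 for store and junction proteins, 2 for remodelling of the triad membrane, 7 for store-operated entry and sodium-calcium exchange, 3 IP3 receptors, 4 for the mitochondrial uniporter and 2 cytosolic calcium binders. Of the 40 genes, 39 were represented by 61 probes, out of 56605 different probes on the array. Ryr3 was not analysed here, because no probe was matched to it. Probes were tested where 3 or more of the 6 mice had a signal well above background. This held for 59 of the 61 member probes, which left each of the 39 genes with at least 1 tested probe. Both untested probes belong to Cacna2d2.

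In skeletal muscle, the voltage sensor of the transverse tubule (built around Cacna1s) is mechanically coupled to the ryanodine receptor Ryr1 of the sarcoplasmic reticulum at a junction called the triad. Calcium bound to calsequestrin inside the store then leaves through Ryr1 and triggers contraction, and it is taken back by pumps, buffered by parvalbumin in fast fibres and partly taken up by mitochondria. When the store runs low, Stim1 in its membrane opens Orai1 in the plasma membrane.

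The question was whether muscle without GRSF1, an RNA-binding protein found in mitochondria, differs in these transcripts at an advanced age. RNA of 3 Grsf1cKO and 3 WT mice was labelled with Cy3 and hybridized to 8 single-color Agilent mouse arrays, 1 per mouse and a repeat array each for Grsf1cKO 1 and WT 1. All mice were 17-month-old males. Grsf1cKO mice came from Grsf1tm1a mice whose LacZ and Neo cassettes were removed with FLPo, which leaves exons IV and V of Grsf1 floxed, and then carried Myf5Cre, a Cre driver active in the myogenic lineage from early development. The labels call the controls wildtype and do not say whether they carried the floxed allele or Cre. The labels name the vastus intermedius, whereas the methods of the study name the rectus femoris. In such bulk RNA, fewer cells of a type and less RNA per cell cannot be told apart.

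Signals below are quantile-normalized log2 intensities, so a difference of 1 is a doubling, and they are compared only within a probe. On the 8 arrays, 66.3 to 88.9% of spots were well above background, the highest share being that of the repeat array of Grsf1cKO 1. The number of mice limits the precision. Grsf1 itself measured 12.15, 12.02 and 12.08 in Grsf1cKO mice 1 to 3 and 14.30, 14.25 and 14.27 in WT mice 1 to 3. The difference was -2.19 (SE 0.08, limma adjusted p = 0.00328), and the genotypes did not overlap. Whether its probe lies in the deleted exons was not given in the sources used here. All 6 skeletal muscle genes checked (Acta1, Ckm, Mb, Des, Ttn and Neb) had a tested probe. Grsf1cKO 3 stood apart in other lists: its immune markers summed to 15.05 against 14.03 to 14.30 in the other mice. Its slow-fibre markers summed to 18.16 against 17.78 to 17.88, and its cardiac markers to 13.56 against 11.68 to 11.97.

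None of the 59 tested probes of calcium-handling genes passed the test between Grsf1cKO and WT muscle. With a fold change over 1.5, p under 0.01 and a false discovery rate under 0.2, limma called 0 member probes, where 0.00771% of all 38888 tested probes were called. With an unadjusted p under 0.05, 0 member probes were higher and 0 were lower in Grsf1cKO muscle, against 1.29% and 2.96% of all tested probes. The lowest adjusted p of a member was 0.996. A z-test of the kind named in the methods of the study also called 0 of the 59 probes, against 0.975% of all probes. It was run here on the same normalized log2 values and with the call criteria above. The z-scores, z-ratio and variance filter of those methods were not used. The z-test gave an unadjusted p under 0.05 for 3 member probes (Cacnb1, Itpr1 and S100a1), against 10.8% of all probes. Neither test covered the 2 Cacna2d2 probes that did not pass the background filter, and the study lists that gene among altered genes.

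The differences lay on both sides of 0. Reading each gene from its brightest tested probe, 18 genes were above 0 and 21 below, with a median of -0.006 over the 39 genes and of -0.026 over all tested probes. For 36 of the 39 genes, the 95% confidence interval of the difference lay entirely within a 1.5-fold change in either direction, as it did for 62.9% of all tested probes. The other 3 genes were Casq2, Cacng1 and Cacnb1. The 36 include Pvalb, whose value quantile normalization held nearly fixed, as described below, so its interval does not show how alike the genotypes were. The members also varied little between mice of a genotype: their median pooled SD was 0.110, and that of all tested probes 0.181. The probes were not matched for brightness in that description. In 14 genes with several tested probes, no pair of probes pointed in opposite directions by more than 0.58.

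**Figure D1:**
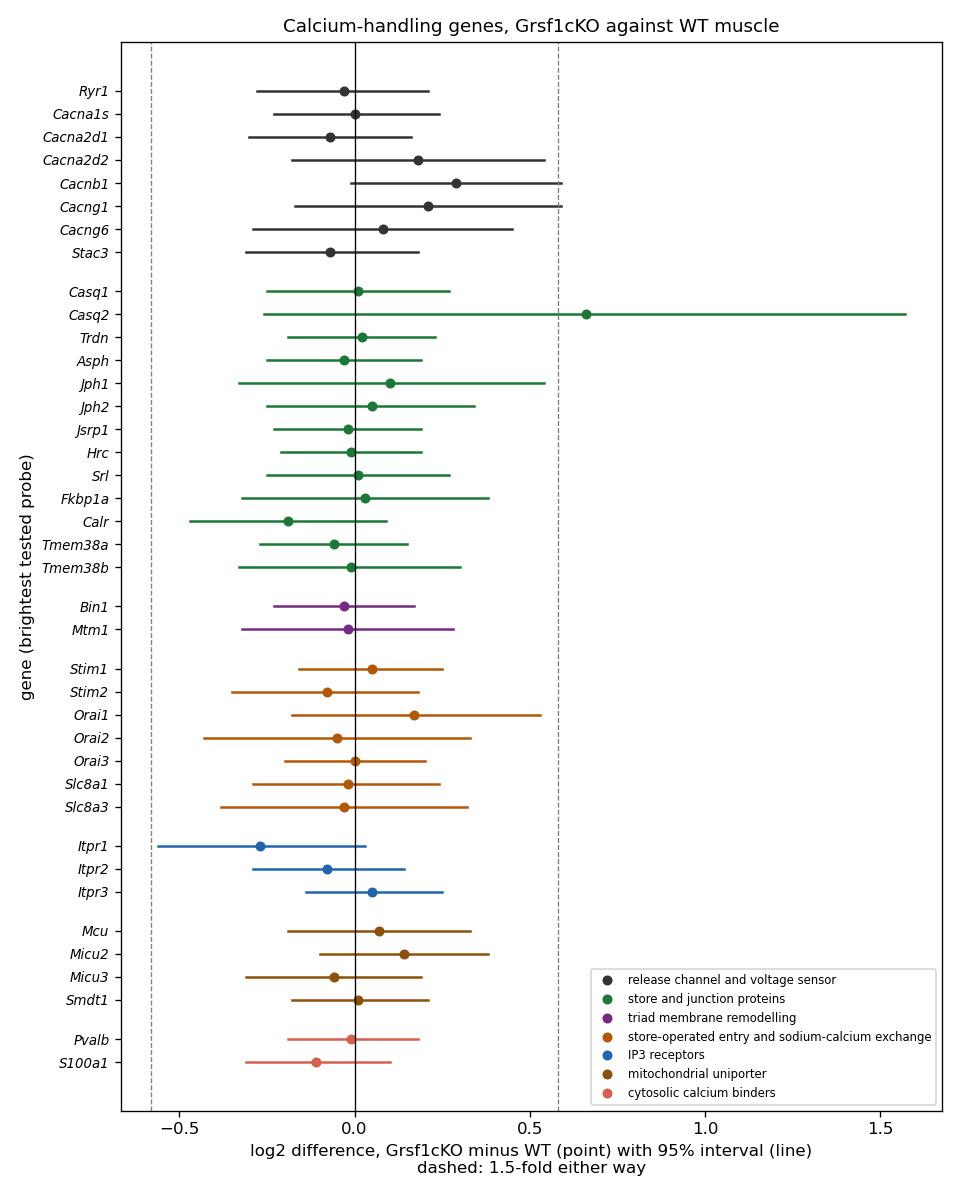
Log2 difference between Grsf1cKO and WT muscle (horizontal axis, point) with its 95% confidence interval from limma (line) for the brightest tested probe of each of 39 genes, colored by role; dashed lines mark a 1.5-fold change either way. The intervals of 36 genes stay between the dashed lines, and that of Casq2, from -0.26 to 1.57, is the widest.

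Of the 8 tested genes of the release channel and voltage sensor, 5 were above and 3 below 0, from -0.07 to 0.29. Ryr1, the calcium release channel of the sarcoplasmic reticulum, measured 17.86, 17.76 and 17.60 in Grsf1cKO mice 1 to 3 and 17.71, 17.75 and 17.86 in WT mice 1 to 3. Grsf1cKO 3 was the lowest mouse, the genotypes overlapped, and the difference was -0.03 (SE 0.10, adjusted p = 0.998). Cacna1s, the pore and voltage-sensing subunit of the dihydropyridine receptor, measured 18.02, 17.94 and 17.99 in Grsf1cKO and 18.06, 17.84 and 18.04 in WT mice. Its difference was 0.00, with a 95% interval from -0.23 to 0.24. Stac3, the adaptor that lets the voltage sensor reach and operate the release channel, measured 16.30, 16.23 and 16.03 in Grsf1cKO and 16.30, 16.21 and 16.25 in WT mice. Leaving out 1 mouse at a time gave differences from -0.09 to 0.03 for Ryr1 and from -0.12 to 0.01 for Stac3. With each array scaled only by its 75th percentile, the differences were -0.14 (SE 0.09) for Ryr1 and -0.11 (SE 0.10) for Cacna1s, both with an adjusted p of 0.996, and -0.07 for Stac3.

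Cacnb1, the beta subunit that anchors the voltage sensor in the tubule, had the lowest unadjusted p among the members. It measured 13.42, 13.57 and 13.24 in Grsf1cKO and 12.98, 13.12 and 13.24 in WT mice. The highest WT mouse equalled the lowest Grsf1cKO mouse at the precision given. The difference of 0.29 (SE 0.12, 95% interval -0.01 to 0.59) gave an unadjusted limma p of 0.0557 and an adjusted p of 0.996. Leaving out 1 mouse at a time gave 0.21 to 0.38. On the arrays of slide 2 alone it was 0.28 (SE 0.15). Cacng1, which damps the channel, measured 14.20, 14.26 and 14.42 in Grsf1cKO and 13.80, 14.12 and 14.33 in WT mice, a difference of 0.21. Cacng6 differed by 0.08, and Cacna2d1, the main auxiliary alpha2-delta subunit of skeletal muscle, by -0.07, with -0.21 and 0.10 on its dimmer probes.

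Cacna2d2, another alpha2-delta subunit that the study lists among altered genes, was read differently by its 3 probes. Only the brightest passed the background filter, so the tests above say nothing of the other 2. The brightest is annotated to another RefSeq transcript than the 2 dim ones, and which transcripts each detects was not checked here. The brightest, well above background on every array, measured 8.18, 8.66 and 8.22 in Grsf1cKO and 8.19, 8.22 and 8.12 in WT mice. Grsf1cKO 2 alone was high, and the difference was 0.18 (SE 0.15, adjusted p = 0.996). The dimmest probe measured 3.96, 3.47 and 3.51 in Grsf1cKO and 2.51, 2.07 and 1.90 in WT mice, so its genotypes did not overlap. No WT array had it well above background, and of the 4 Grsf1cKO arrays only 1 did, the repeat array of Grsf1cKO 1. The lowest signal well above background was 2.30 on that array and 4.10 to 4.85 on the other 7, above this probe on each of them, and no fold change is given. The middle probe measured 4.07, 3.97 and 3.93 against 3.59, 4.29 and 3.28, with overlap.

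**Figure D2:**
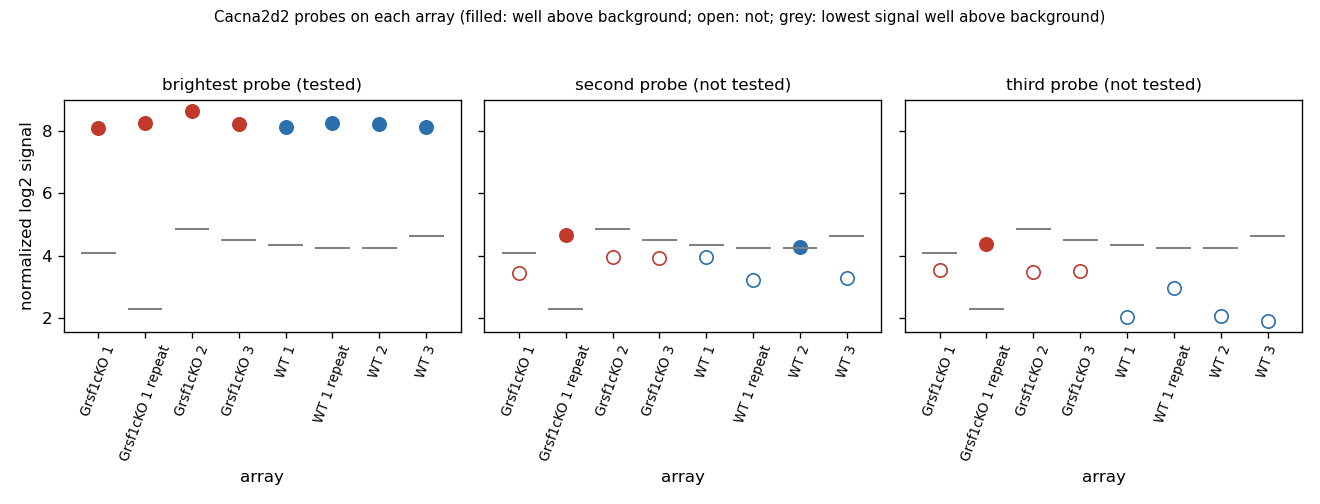
Normalized log2 signal of the 3 Cacna2d2 probes (panels) on each of 8 arrays (red, Grsf1cKO; blue, WT); filled points were well above background, open points were not, and grey lines mark the lowest signal well above background on that array. The left probe sits between 8.11 and 8.66 on every array, whereas the right probe separates the genotypes only below the grey lines, apart from the repeat array of Grsf1cKO 1.

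Of the 13 store and junction genes, 7 were above and 6 below 0, from -0.19 to 0.66. The calsequestrins are the main calcium-binding proteins of the store. Casq1, the form of fast fibres, measured 17.31, 17.46 and 17.18 in Grsf1cKO and 17.22, 17.36 and 17.35 in WT mice, a difference of 0.01 (SE 0.10). Casq2, the form of cardiac muscle and slow fibres, measured 11.77, 12.19 and 12.87 in Grsf1cKO and 11.05, 11.68 and 12.13 in WT mice. Grsf1cKO 3 was the highest and WT 1 the lowest, and the ranges overlapped.

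Only Casq2 had tested probes that differed over 1.5-fold. The brighter one differed by 0.66 (1.58-fold, SE 0.37), with an unadjusted p of 0.129 and an adjusted p of 0.996 in limma, and 0.2 in a 2-sided exact permutation test. The dimmer one measured 4.32, 5.59 and 5.70 against 3.78, 4.30 and 5.41, a difference of 0.70 (SE 0.54). It was well above background in 3 Grsf1cKO mice and only 1 WT mouse, so it passed the filter through the genotype where it is brighter and is no second support for the brighter probe. The pooled SD of the brighter probe within a genotype, 0.55, was the largest of the 39 genes, followed by 0.24 for Jph1. Leaving out 1 mouse at a time moved the difference of the brighter probe in both directions, to 0.36 without Grsf1cKO 3 and 0.37 without WT 1, and to 0.91 without Grsf1cKO 1 or without WT 3. On slide 2 alone it was 0.69 (SE 0.46). Neither repeat array moved it much, with 11.78 and 11.75 for Grsf1cKO 1 and 11.06 and 11.03 for WT 1.

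Of the 6 slow-fibre markers tested, 5 were above 0 in Grsf1cKO muscle and 1 below, with a median difference of 0.551, and all 6 were well above background in every mouse. Tnni1, slow troponin I, measured 14.33 in Grsf1cKO 3 and 10.35 to 11.21 in the other 5 mice, with WT 1 the lowest, the same highest and lowest mouse as for Casq2. The markers Tnnc1 and Tnnt1 were also highest in Grsf1cKO 3, at 10.28 against 8.16 to 8.89 and 14.38 against 11.98 to 13.02. In Tnni1, Tnnc1 and Tnnt1 the other Grsf1cKO mice lay within the WT range, so the median depends on Grsf1cKO 3. Myl2, the slow regulatory light chain, measured 13.46, 13.48 and 14.36 in Grsf1cKO and 13.12, 13.23 and 13.04 in WT mice. All Grsf1cKO mice lay above the WT mice. The difference was 0.63, with an unadjusted p of 0.0489 and an adjusted p of 0.996 in limma. Myh7, slow myosin heavy chain, ran otherwise, at 9.39 in Grsf1cKO 3 and 11.35 in Grsf1cKO 1. Read from their brightest probes, 2 of the 4 cardiac markers tested were above and 2 below 0, with a median of 0.081. Tnnt2, the cardiac and embryonic troponin T, was 13.33 in Grsf1cKO 3 and 10.45 to 10.98 in the others. Tnni3 was also highest in Grsf1cKO 3, at 7.53 against 6.61 to 7.27. Myh6 was lowest there, at 10.52 against 10.66 to 10.85, and Nppa, at 7.41, lay within the 6.70 to 7.89 of the others. The immune marker Cd68 was 13.30 in Grsf1cKO 3 against 11.57 to 11.96. The part of these differences in the Casq2 values was not tested.

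**Figure D3:**
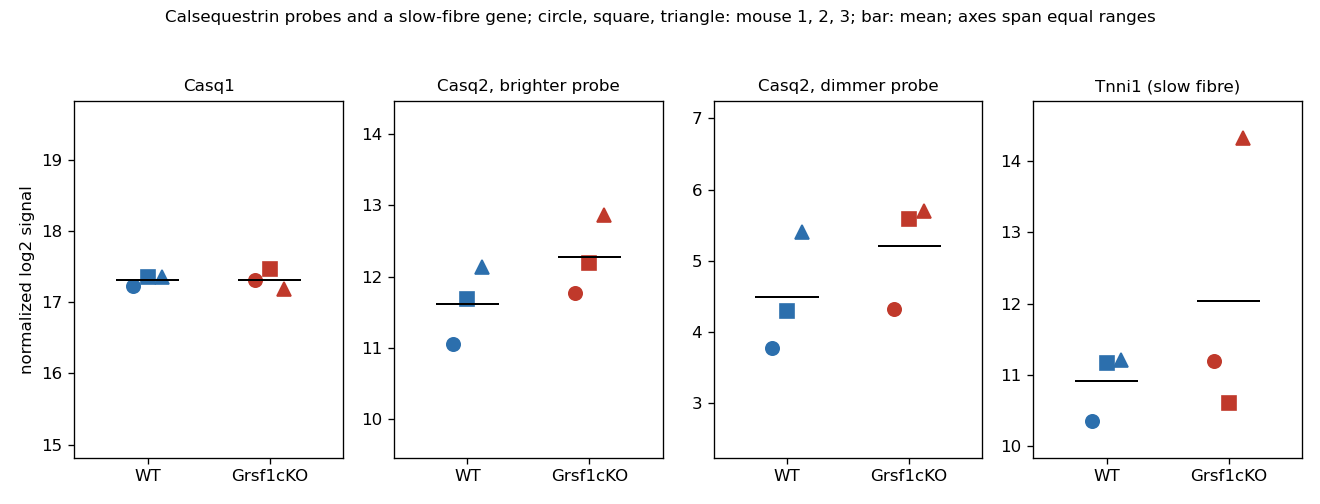
Normalized log2 signal (vertical axes, each spanning the same range) of Casq1, both Casq2 probes and Tnni1 in every mouse (circle, square and triangle for mouse 1, 2 and 3 of a genotype; bars, means). Casq1 stays between 17.18 and 17.46, Casq2 spreads from 11.05 to 12.87 on its brighter probe, and Tnni1 stands out at 14.33 in Grsf1cKO 3.

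The promoters of this pair are shown because the 2 genes encode related proteins of the same store but had unlike spreads between mice. They cover the 250 bases before the start site from RefSeq (GRCm38.p6). The capitals mark CAGCTG, an E-box bound by myogenic factors.

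Casq1 (chr1:172219896-172220145, minus strand): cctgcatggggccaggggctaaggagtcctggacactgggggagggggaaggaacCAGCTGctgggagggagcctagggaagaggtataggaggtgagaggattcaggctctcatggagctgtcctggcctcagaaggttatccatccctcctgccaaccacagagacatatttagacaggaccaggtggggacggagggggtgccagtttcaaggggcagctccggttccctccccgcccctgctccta

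Casq2 (chr3:102086165-102086414, plus strand): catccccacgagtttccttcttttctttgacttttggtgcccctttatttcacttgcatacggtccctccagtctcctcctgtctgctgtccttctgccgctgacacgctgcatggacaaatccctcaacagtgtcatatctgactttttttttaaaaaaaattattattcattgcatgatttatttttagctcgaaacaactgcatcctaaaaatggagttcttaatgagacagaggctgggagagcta

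Casq1 held 1 CAGCTG, starting 195 bases before its start site, and Casq2 held none of the letters searched. Windows from 250 bases before to 50 after the start site were available for 28 of the 40 genes, some with several. CAGCTG, which reads the same on both strands, was in 9 of their 33 windows (27.3%) and in 16.3% of all 32851 windows. CATTCC or its complement GGAATG, the core of the MCAT element, was in 15.2% and 14.7%, and TATAAA or TTTATA in 3.0% and 13.6%. None of these motifs contains another. A match is a description of letters and not of a bound site.

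The other junction genes stayed close to WT. Trdn, which encodes triadin, the anchor of calsequestrin at the release channel, measured 17.26, 17.30 and 17.20 in Grsf1cKO and 17.20, 17.18 and 17.33 in WT mice, a difference of 0.02. Jph1 and Jph2 encode junctophilins, which tether the store to the tubule. Jph1 measured 12.41, 12.67 and 12.62 in Grsf1cKO and 12.13, 12.51 and 12.75 in WT mice, with WT mice at both extremes and a difference of 0.10 (SE 0.18). Jph2 measured 14.56, 14.67 and 14.36 against 14.34, 14.54 and 14.58, a difference of 0.05. The lumenal calcium binder Hrc, the sarcalumenin gene Srl and the junctional gene Jsrp1 had differences of -0.01, 0.01 and -0.02. Asph, whose transcripts encode junctin among other proteins, differed by -0.03, the release channel stabilizer Fkbp1a by 0.03, and the counter-ion channel genes Tmem38a and Tmem38b by -0.06 and -0.01.

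Calr, which encodes calreticulin, the calcium-binding chaperone of the endoplasmic reticulum, was the lowest of this group at -0.19 (SE 0.12, adjusted p = 0.996). It measured 13.59, 13.37 and 13.68 in Grsf1cKO and 13.63, 13.82 and 13.75 in WT mice. Grsf1cKO 3 exceeded WT 1, so the genotypes overlapped.

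Both genes of triad membrane remodelling were close to 0. Bin1, which shapes transverse tubules, measured 17.01, 17.13 and 17.12 in Grsf1cKO and 17.12, 17.13 and 17.10 in WT mice, a difference of -0.03 with an interval from -0.23 to 0.17. Mtm1, the myotubularin phosphatase gene, differed by -0.02. In both genes the genotypes overlapped.

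Of the 7 genes of store-operated entry and sodium-calcium exchange, 2 were above and 5 below 0, from -0.08 to 0.17. Stim1, the sensor of store calcium, measured 15.39, 15.27 and 15.27 in Grsf1cKO and 15.27, 15.29 and 15.22 in WT mice. Its difference was 0.05, and its other probes gave 0.01 and 0.18. Orai1, the entry channel that Stim1 opens, measured 11.67, 11.79 and 11.72 in Grsf1cKO and 11.28, 11.79 and 11.59 in WT mice. WT 1 was low and WT 2 equalled the highest Grsf1cKO mouse, so that the difference of 0.17 (SE 0.14) lay within overlapping ranges. Stim2, Orai2 and Orai3 differed by -0.08, -0.05 and 0.00, written to 2 decimals, and the Orai2 fit used only 2 Grsf1cKO mice because its spot on the array of Grsf1cKO 3 was left out. The sodium-calcium exchangers Slc8a1 and Slc8a3 differed by -0.02 and -0.03.

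The IP3 receptors release calcium from internal stores in response to the second messenger IP3. Itpr1, the IP3 receptor with the largest difference here, was the only tested member probe whose Grsf1cKO mice all lay below the WT mice, where 6.27% of all probes with values in every mouse did so. It measured 14.39, 14.39 and 14.39 in Grsf1cKO and 14.81, 14.42 and 14.73 in WT mice. The Grsf1cKO mice were alike to the second decimal, and WT 2 was only just above them. The difference was -0.27 (SE 0.12, unadjusted limma p = 0.072, adjusted p = 0.996), and a 2-sided exact permutation test gave p = 0.1, the smallest it can give with 3 against 3 mice. On slide 2 alone, which leaves out WT 2, it was -0.39 (unadjusted p = 0.00827, adjusted p = 0.975). Leaving out 1 mouse at a time gave -0.38 to -0.19, the smallest size being that without WT 1. The other probes of Itpr1 gave -0.04 and -0.21, with overlapping genotypes, and Itpr2 and Itpr3 gave -0.08 and 0.05.

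Of the 4 genes of the mitochondrial uniporter, 3 were above and 1 below 0. Mcu, the pore through which mitochondria take up calcium, measured 12.92, 12.96 and 13.07 in Grsf1cKO and 12.79, 12.89 and 13.06 in WT mice, a difference of 0.07 (SE 0.11). Smdt1, which encodes EMRE, the subunit that links the pore to its gatekeepers, measured 16.76, 16.72 and 16.67 in Grsf1cKO and 16.75, 16.70 and 16.67 in WT mice. Its difference was 0.01, with an interval from -0.18 to 0.21. Micu2, a calcium-sensing gatekeeper, was the only tested member probe whose Grsf1cKO mice all lay above the WT mice, where 3.08% of all probes did. It measured 12.97, 12.96 and 13.18 in Grsf1cKO and 12.93, 12.92 and 12.83 in WT mice, and the gap between Grsf1cKO 2 and WT 1 was in the second decimal. The difference was 0.14 (SE 0.10, adjusted p = 0.996), and from 0.07 to 0.18 when 1 mouse was left out. Micu3 differed by -0.06.

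The cytosolic calcium binders were both just below 0. Pvalb, the parvalbumin gene, measured 19.04 in every Grsf1cKO mouse and 19.06, 19.04 and 19.04 in WT mice. Its probe ranked 2 or 3 of all probes by signal on each array, and quantile normalization gives probes of equal rank equal values, so it could show no difference while its rank stayed the same. When each array was scaled only by its 75th percentile, the arrays of Pvalb ranged from 8.15 to 8.55, and the difference was -0.13 (SE 0.11). S100a1, a calcium-binding modulator of Ryr1, measured 13.84, 13.88 and 13.78 in Grsf1cKO and 13.87, 13.99 and 13.97 in WT mice. Only WT 1 fell within the Grsf1cKO range, and the difference was -0.11 (SE 0.08, adjusted p = 0.996).

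**Figure D4:**
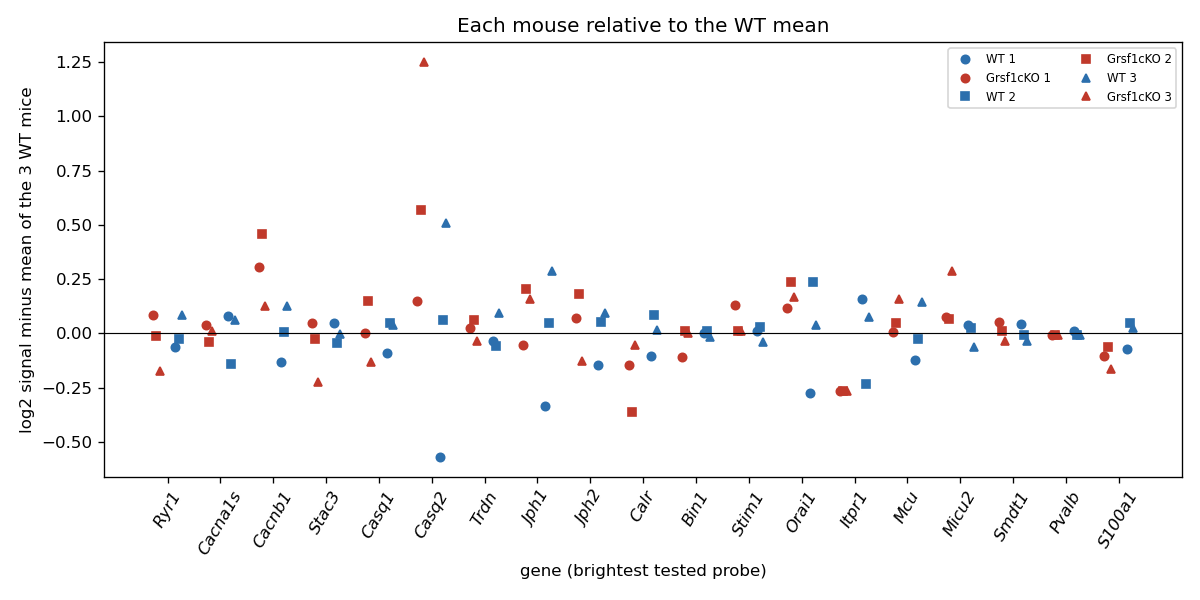
Normalized log2 signal of each mouse minus the mean of the 3 WT mice (vertical axis) for 19 calcium-handling genes (horizontal axis; red, Grsf1cKO; blue, WT; circle, square and triangle for mouse 1, 2 and 3). The genotypes overlap in all genes shown but Itpr1, whose Grsf1cKO mice are at 14.39, and Micu2. In Cacnb1 they only meet, at 13.24. Casq2 has the widest spread, up to 12.87 in Grsf1cKO 3.

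The mice were also compared with one another across the list. Among the 38 genes with a value in every mouse, WT 1 was the lowest mouse in 11 genes (28.9%) and in 17.9% of all tested probes. Grsf1cKO 3 was lowest in 9 genes (23.7%) and in 19.3% of all tested probes. Grsf1cKO 1 was lowest in 3 genes (7.9%) and in 22.4% of all tested probes, and Grsf1cKO 2 in 2 genes (5.3%) and in 12.5%. WT 2 was lowest in 7 genes (18.4%) and in 14.1% of all tested probes, and WT 3 in 6 genes (15.8%) and in 13.7%. These shares set the brightest probes of the member genes against all tested probes, dim ones included. The probes were not matched for brightness, so the contrast is not shown to be particular to calcium genes. The median deviation of a mouse from the mean of the 6 ranged from -0.021 in Grsf1cKO 3 to 0.037 in WT 3. Over all tested probes it ranged from -0.027 in Grsf1cKO 1 to 0.018 in WT 1 and WT 3. These medians are over genes that deviated both ways, so they do not measure how close the mice were. The repeat array of WT 1, on the other slide, differed from its first array by a median of 0.038 over the brightest probes of the member genes and 0.073 over all tested probes. For the repeat of Grsf1cKO 1 these medians were 0.025 and 0.126. Over all member probes, dim ones included, the repeat arrays differed by up to 0.94 for WT 1 and 2.24 for Grsf1cKO 1.

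A wider list of 52 other calcium genes (such as Ryr2, the homers, calmodulins and plasma membrane pumps) was measured beside the members. Of its genes, 50 had a tested probe, whereas Ryr2 and Calb2 had none. None of the 50 was called or had an unadjusted p under 0.05 in limma on its brightest probe, and their median was -0.041. Over all 91 tested probes of the list, 0 were higher and 3 were lower with p under 0.05, where 1.29% and 2.96% of all tested probes were. They were single dimmer probes of Homer1 (-0.33, SE 0.10), Jph4 (-0.60, SE 0.13) and Trpc6 (-0.45, SE 0.18), each with an adjusted p of 0.996 in limma. The probes of Jph4 and Trpc6 were each well above background in 3 WT mice and 1 Grsf1cKO mouse, so they passed the filter through the genotype where they are brighter, and their differences rest on Grsf1cKO signals that were mostly not above background. The brightest probes of these genes differed by -0.12, -0.14 and -0.14.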

How the data were processed

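Single-color Agilent arrays of 6 mice (8 arrays) were used. The deposited scanner files give background-subtracted processed signals, which the authors extracted as linear intensities with Feature Extraction 12.0.3.1. A deposited table holds z-scores, a score that the authors made from the log2 intensities of each array. Own z-scores of log2 intensities matched it within 0.005.

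From the intensities, control spots and outlier spots were left out, log2 values were quantile-normalized over 8 arrays, and spots of a probe and arrays of a mouse were averaged. Probes well above background in at least 3 mice, with values in at least 2 mice of each genotype (38888 of 56605), were tested for genotype with limma 3.58.1 in R 4.3.3 and adjusted by the Benjamini-Hochberg method. A call needed a fold change over 1.5, p under 0.01 and a false discovery rate under 0.2. Probe accessions were matched to RefSeq gene symbols (GRCm38.p6), and 32994 probes had one. Whether mice were littermates is not given in the sources used here. WT 1 (first array) and WT 2 shared slide 1, and the other 6 arrays slide 2. The fit was tested on simulated data.

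The members and gene lists were chosen with earlier results of these data known. Mouse values were given for the brightest probe of 16 core genes, for Cacna2d2, which the study lists among altered genes, for probes with p under 0.05 or with a fold change over 1.5 and no overlap, and for genes whose probes disagreed by over 0.58. Cacnb1, Cacng1, Itpr1 and Micu2 were added after their values were seen. Alternatives were the scaling, background correction, deposited scores, filter, arrays, slide, z-test, intensity trend, replicate block and each mouse left out.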

Additional observations from a re-analysis of the deposited data

How the results depend on the processing

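The count of member probes called was 0 under all 18 alternatives run, and the median over member genes moved by at most 0.063. The count of member probes with an unadjusted p under 0.05 was 0 as reported, and 1 with normexp background correction, with detection in all mice, with first arrays only and with no filter; it was 1 on slide 2 alone and with slide as a block, 2 with 75th percentile scaling and with an intensity trend, and 3 with the z-test. These probes were of Cacnb1, Itpr1, Casq2, Asph, S100a1 and the dimmest of Cacna2d2, and the lowest adjusted p of them was 0.251. Leaving out 1 mouse gave 0 to 1. Same-numbered mice were not taken as pairs: their deviations correlated at 0.232, 0.097 and 0.104, and 0.097 fell just short of the limit of 0.1. Each mouse correlated best with its own number, so these values do not settle whether the mice were pairs. With the replicate number as a block, 2 member probes passed an unadjusted p of 0.05, the brighter of Casq2 (0.66, SE 0.10, adjusted p = 0.751) and its dimmer one, well above background in only 1 WT mouse, and the Grsf1 difference was -2.19 with an adjusted p of 0.25, whereas it stayed called under the other alternatives. Of 360 values of 20 named genes under alternatives, 329 kept their sign, 31 changed it and none was called; the cause was not tested. Signal over background limits the dim probes of Cacna2d2, Casq2, Slc8a1 and Asph.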
